A study of Mus musculus with 2 samples.

Results

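Cluster 18 is a small group of aortic cells of the deposited class SMC, for smooth muscle cells, at the finest clustering that the authors deposited. Its members were all barcodes whose deposited class was SMC and whose deposited cluster number was 18, with 1 entry kept per barcode, since every barcode of the Apoe-/- library stood in the files 2 times. It held 62 of 7917 cells: 27 of 5489 cells from EC-iDKO/Apoe-/- mice and 35 of 2428 cells from Apoe-/- mice. The working name of the cluster was Col2a1-expressing, but Col2a1 was not seen in any of its EC-iDKO/Apoe-/- cells and 2 cells carried most of it in the Apoe-/- library, so the cells are called cluster 18 here. What set the cluster apart from the other SMC clusters in both libraries was a high share of the long noncoding RNAs Malat1 and Neat1 and of mitochondrial transcripts, and a low share of ribosomal protein, respiratory chain and contractile transcripts.

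The study sequenced single cells from enzymatically digested aortas of EC-iDKO/Apoe-/- and Apoe-/- mice fed a western diet for 12 weeks, with 1 droplet library of 3-prime tags per genotype. Both groups lack Apoe, the apolipoprotein that clears lipoprotein remnants, so plaque-prone aortas stand on both sides of the comparison. EC-iDKO is the name used for an inducible endothelial deletion of Epn1 and Epn2, the epsins, adaptors of clathrin-mediated endocytosis; the labels do not spell the genes out, and the sources used here give neither the Cre driver nor the ages or number of mice. The protocol names CD31 microbeads while the labels describe all cells, so the cells were not read as a sort.

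Contractile smooth muscle cells of the aortic wall are defined by a dense set of cytoskeletal transcripts, among them Acta2, Tagln and Myh11, and lose part of it in plaques, where some take up transcripts of fibroblasts or cartilage. Malat1 and Neat1 are long noncoding RNAs that stay in the nucleus: Malat1 sits in nuclear speckles and Neat1 builds paraspeckles. Ribosomal protein transcripts are translated in the cytoplasm, and the transcripts of the mitochondrial genome stay inside mitochondria.

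The libraries differed in depth, with 6853185 UMIs and a median of 769 per cell in EC-iDKO/Apoe-/- and 13304762 UMIs and a median of 3769.5 per cell in Apoe-/-. Cluster 18 held 24810 UMIs in EC-iDKO/Apoe-/- and 55172 in Apoe-/-. Its cells carried 529 to 2618 UMIs in EC-iDKO/Apoe-/-, with a median of 797 against 771 in the other SMC clusters, and 513 to 3089 in Apoe-/-, with a median of 1679 against 4973. The cells were therefore as deep as other SMC in the first library and shallower in the second. With 1 library per genotype there is no replicate, so no p-value is given; the intervals below are exact 95% intervals that cover counting error only. The clusters were made from these same genes, so cluster 18 against other clusters is a description and not a test. The libraries shared 5 barcodes, of which 0 lay in cluster 18.

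The cluster made up 0.492% of EC-iDKO/Apoe-/- cells (0.324 to 0.715, exact Clopper-Pearson) and 1.44% of Apoe-/- cells (1.01 to 2.00). Of SMC cells alone it made up 0.613% in EC-iDKO/Apoe-/- and 2.28% in Apoe-/-. At coarser deposited resolutions the same 62 cells lay inside larger SMC groups, of 864 cells at resolution 0.4 and 915 at 0.8. At 1.0 a cluster of 889 cells held 61 of them. The remaining cell, from Apoe-/-, lay in a cluster of 346 cells, of which 1, the cell itself, was of class SMC. When only cells of 1000 or more UMIs with a mitochondrial share below 10% were kept, the shares were 0.225% in EC-iDKO/Apoe-/- and 0.560% in Apoe-/-, over 4 and 11 cells of the cluster.

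Malat1 alone took 14.9% of all UMIs of cluster 18 in EC-iDKO/Apoe-/- and 12.4% in Apoe-/-. In single cells of EC-iDKO/Apoe-/- the share was 9.16% at the lowest, 13.8% at the median and 31.1% at the highest, against a median of 2.86% in other SMC. In Apoe-/- the lowest, median and highest shares were 6.93%, 11.6% and 19.8%, against a median of 3.90% in other SMC. All 27 and all 35 cells lay above the median of the other SMC clusters, while 42 other SMC cells in EC-iDKO/Apoe-/- (0.959%) and 52 in Apoe-/- (3.46%) reached the median of cluster 18, so single cells overlapped in their upper tail. Summed over the cluster, Malat1 stood at 149416 against 34106 UMIs scaled to a total of 1000000 (CPM) in EC-iDKO/Apoe-/- (4.38-fold, 4.24 to 4.53) and at 123577 against 42057 CPM in Apoe-/- (2.94-fold, 2.87 to 3.01).

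Neat1 lies on chromosome 19 from 5824708 to 5845478 on the minus strand of GRCm38, 22035 bases from Malat1, which spans 5795690 to 5802672 on the same strand. It had 80 UMIs in 23 of 27 EC-iDKO/Apoe-/- cells and 267 UMIs in 34 of 35 Apoe-/- cells. Its level was 3225 CPM in cluster 18 against 903 CPM in other SMC in EC-iDKO/Apoe-/- (3.57-fold, 2.83 to 4.45) and 4839 against 636 CPM in Apoe-/- (7.61-fold, 6.70 to 8.60). The signal was thus spread over nearly all cells of the cluster. Of the 7 measured members of a list of nuclear-retained long RNAs, 5 passed the rule of size upward in each library and 0 downward, where 5.13% and 6.06% of all measured genes passed upward. The rule asks for a ratio of at least 2, or at most 0.5, with an interval that does not hold 1, and a gene counts as measured with at least 100 UMIs in the library. Among the 5 were Kcnq1ot1, the antisense RNA of an imprinted domain (4.64-fold on 14 UMIs in EC-iDKO/Apoe-/- and 3.41-fold on 19 UMIs in Apoe-/-), Dleu2 (3.58-fold and 6.04-fold) and the imprinted Meg3 (3.06-fold and 2.99-fold). How reads of Kcnq1ot1 were kept apart from those of Kcnq1, its sense partner, was not checked.

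**Figure D1:**
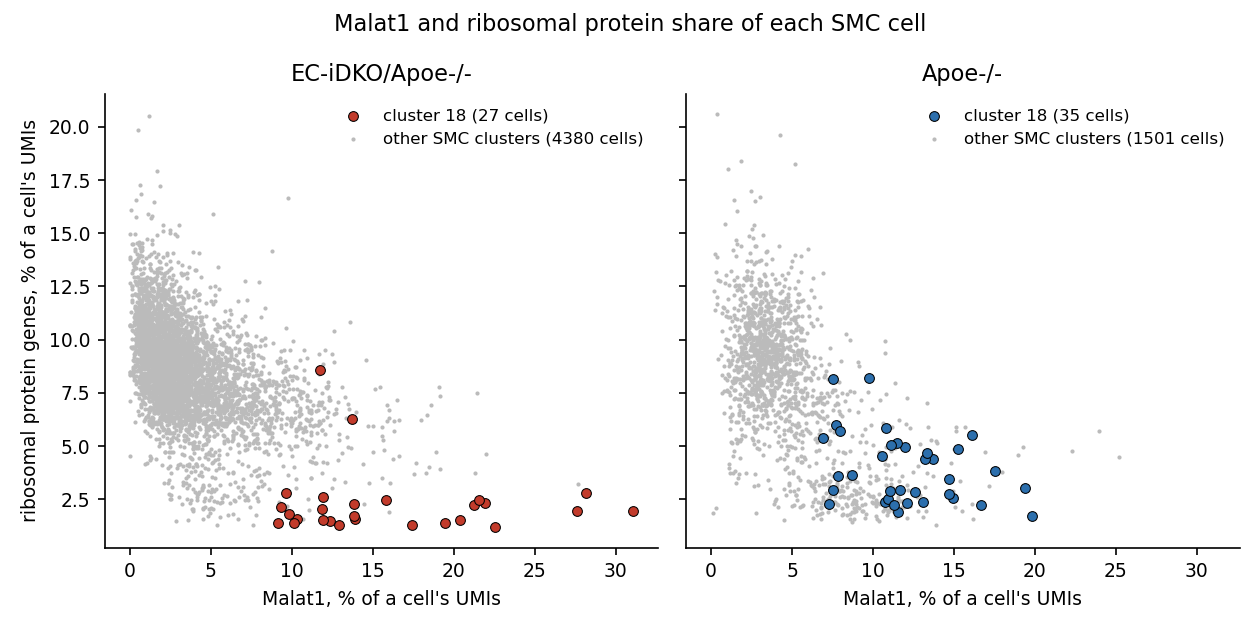
Each point is 1 cell, with the percent of its UMIs from Malat1 on one axis and from cytosolic ribosomal proteins on the other, in EC-iDKO/Apoe-/- and Apoe-/- panels, with cluster 18 drawn over the other SMC cells. The cells of cluster 18 sit at high Malat1 (medians 13.8% and 11.6%) and low ribosomal protein shares (medians 1.94% and 3.59%), and other SMC cells reach into that corner.

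Across all measured genes, cluster 18 was higher than the other SMC clusters for 361 of 7039 genes in EC-iDKO/Apoe-/- (5.13%) and 552 of 9106 in Apoe-/- (6.06%), and lower for 273 (3.88%) and 358 (3.93%). These splits rest on scaling to the total: with TMM factors they were 108 higher and 741 lower in EC-iDKO/Apoe-/- and 288 and 859 in Apoe-/-, with DESeq2 size factors 114 and 710, and 304 and 817. With Malat1, ribosomal protein and mitochondrial genes taken out of the totals they were 459 and 135 in EC-iDKO/Apoe-/-, and 644 and 204 in Apoe-/-. The factors moved every log2 ratio by -0.79 (TMM) and -0.76 (DESeq2) in EC-iDKO/Apoe-/- and by -0.52 and -0.48 in Apoe-/-. The reduced totals moved the ratios of the remaining genes the other way, by 0.22 and 0.14. Here and in the comparisons below, TMM and DESeq2 factors rest on genes with a UMI in both sums. Genes at 0 in the small sum of cluster 18 thus did not enter them. The part of this selection in the shift was not tested. Among genes for which the level of other SMC predicted at least 3 UMIs in cluster 18, the median log2 ratio was -0.54 over 1265 genes in EC-iDKO/Apoe-/- and -0.31 over 2759 in Apoe-/-, with genes at 0 set to 3 UMIs. Of these genes, 8.22% were higher and 21.6% lower in EC-iDKO/Apoe-/-, and 6.56% and 13% in Apoe-/-. Of the genes measured in both libraries, 105 were higher in both (29.1% of the EC-iDKO/Apoe-/- set and 19.0% of the Apoe-/- set), 155 were lower in both (56.8% and 43.3%) and 1 went opposite ways. Over the 1166 genes with at least 3 predicted UMIs, and a UMI in cluster 18, in both libraries the log2 ratios correlated at r = 0.63, a description across genes that are not independent.

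**Figure D2:**
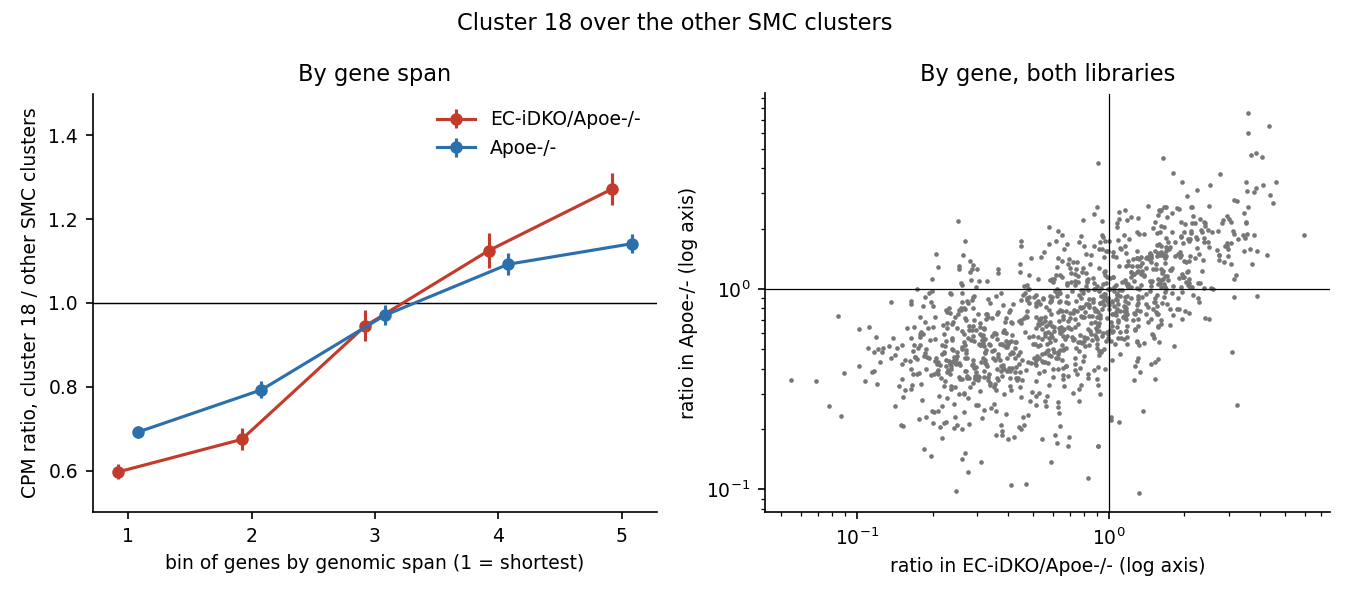
The panels show the ratio of summed levels in cluster 18 over other SMC by 5 bins of genomic gene span in each library, and the ratio on log axes of each of 1166 genes in EC-iDKO/Apoe-/- against Apoe-/-. The ratio climbs with span, with 0.597 in the bin of shortest genes and 1.27 in the longest in EC-iDKO/Apoe-/-, and 0.692 and 1.14 in Apoe-/-.

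The length of a gene on the genome went with its ratio. Genes were put in 5 bins of equal number by their GENCODE span, after Malat1, ribosomal protein, mitochondrial and nuclear respiratory chain genes were left out. Over the bins, shortest first, summed levels in cluster 18 were 0.597, 0.674, 0.945, 1.12 and 1.27 times those of other SMC in EC-iDKO/Apoe-/-, and 0.692, 0.793, 0.971, 1.09 and 1.14 times in Apoe-/-. Both libraries therefore ran in the same order over all bins. Genes with higher levels in both libraries included Myh9, a nonmuscle myosin heavy chain (3.79-fold and 3.06-fold), and Ints6, a subunit of the Integrator complex (4.08-fold and 4.56-fold).

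Transcripts of cytosolic ribosomal proteins were at a low level in cluster 18. Among all genes with at least 3 predicted UMIs, 21.6% were lower in EC-iDKO/Apoe-/- and 13% in Apoe-/-. Of 81 ribosomal protein genes, 70 were lower in EC-iDKO/Apoe-/- and 68 in Apoe-/-, and 0 were higher in either. Their summed level was 22572 against 84023 CPM in EC-iDKO/Apoe-/- (0.269 of other SMC, 0.247 to 0.292) and 36123 against 90316 CPM in Apoe-/- (0.40, 0.383 to 0.418). In single cells the share was 1.94% at the median in EC-iDKO/Apoe-/- (lowest 1.19%, highest 8.58%) against 8.45% in other SMC, and 3.59% in Apoe-/- (1.72% to 8.21%) against 8.47%. One EC-iDKO/Apoe-/- cell lay above the median of other SMC and the remaining 26 lay below it, as did all 35 Apoe-/- cells. The elongation factor Eef1a1 stood at 0.34 of its other-SMC level in both libraries.

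The 13 protein-coding genes of the mitochondrial genome and the nuclear genes of the respiratory chain differed in direction. Summed mitochondrial transcripts stood at 110480 against 46822 CPM in EC-iDKO/Apoe-/- (2.36-fold, 2.27 to 2.45) and at 96933 against 50744 CPM in Apoe-/- (1.91-fold, 1.86 to 1.96); 10 of 13 genes passed the rule upward in EC-iDKO/Apoe-/- and 1 of 13 in Apoe-/-, where mt-Co1, a cytochrome oxidase subunit, was 2.05-fold higher and mt-Co3 and mt-Cytb stood at 1.97-fold and 1.94-fold; 0 of 13 passed there without the 2 cells rich in Col2a1. The nuclear respiratory chain list summed to 0.290 of the other-SMC level in EC-iDKO/Apoe-/- (21 of 72 measured genes lower, 0 higher) and 0.416 in Apoe-/- (38 of 73 lower, 0 higher). Over all measured genes 5.13% and 6.06% were higher, and 3.88% and 3.93% lower. Of genes with at least 3 predicted UMIs, 21.6% and 13% were lower. Both genomes supply subunits of the same complexes, and the summed levels of their transcripts lay on opposite sides of 1 in both libraries. The mitochondrial share of single cells ran over 1.01%, 13.2% and 19.7% (lowest, median, highest) in EC-iDKO/Apoe-/-, against a median of 4.13% in other SMC, and over 0.571%, 8.15% and 16.7% in Apoe-/-, against 4.86%. This spread was wide: 4 of 27 and 12 of 35 cells lay below the other-SMC median, while none did so for Malat1. A high mitochondrial share and a low share of cytoplasmic transcripts are used as marks of damaged cells; the part of cell quality in the profile of cluster 18 was not tested.

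**Figure D3:**
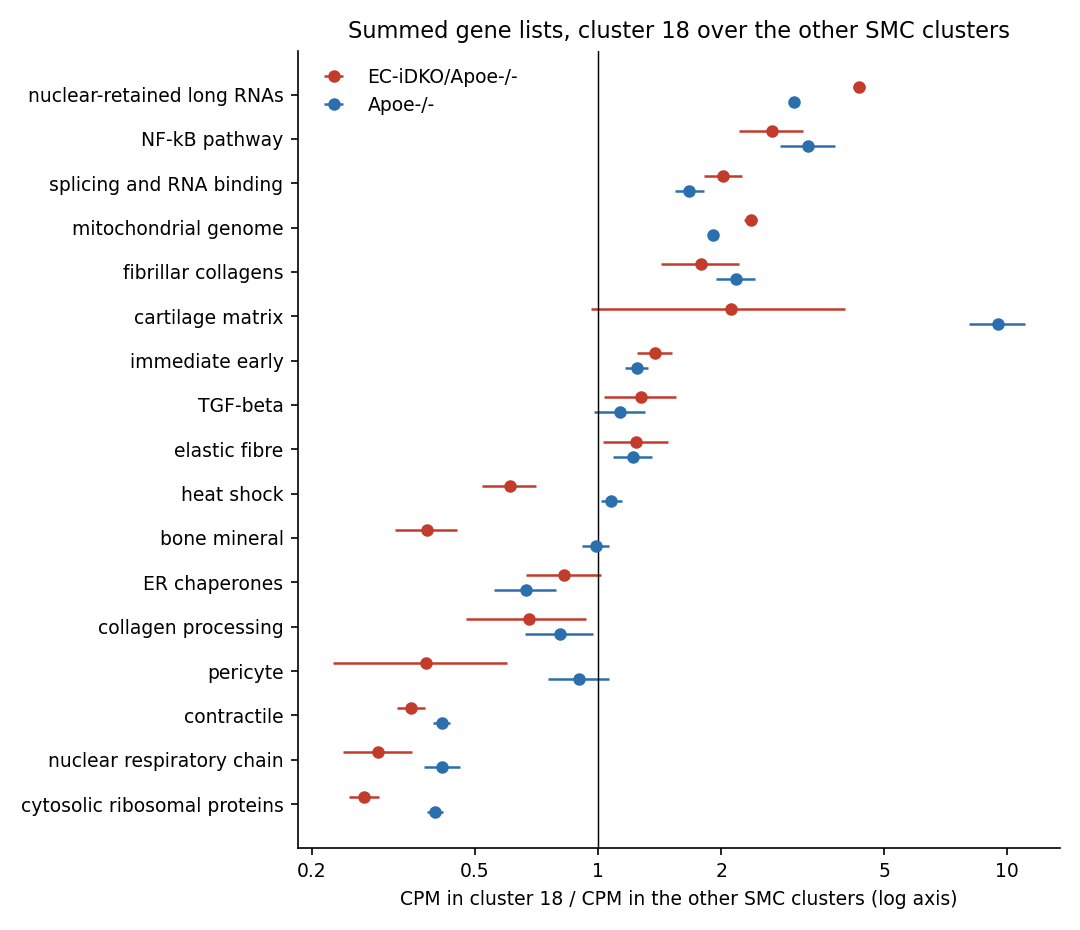
Ratios of summed CPM in cluster 18 over the other SMC clusters, with exact 95% intervals for counting error, are drawn per gene list on a log axis for EC-iDKO/Apoe-/- and Apoe-/-. Nuclear-retained RNAs (4.35 and 3.01), the NF-kB list (2.66 and 3.26) and the mitochondrial genome (2.36 and 1.91) lie above 1, and contractile (0.35 and 0.42) and ribosomal protein genes (0.269 and 0.40) lie below it.

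Contractile genes were at lower levels in cluster 18 than elsewhere in the SMC class. Of 16 genes, 8 were lower in EC-iDKO/Apoe-/- and 10 in Apoe-/-, and 0 were higher. Among all genes with at least 3 predicted UMIs, 21.6% and 13% were lower. Acta2, the smooth muscle actin on chromosome 19 (34241090 to 34255590, minus strand, GRCm38), had 146 UMIs in 26 of 27 EC-iDKO/Apoe-/- cells and 469 UMIs in 35 of 35 Apoe-/- cells. That was 5885 against 23062 CPM in EC-iDKO/Apoe-/- (0.26, 0.22 to 0.30) and 8501 against 23421 CPM in Apoe-/- (0.36, 0.33 to 0.40). The actin-binding Tagln stood at 0.27 and 0.39, the regulatory light chain Myl9 at 0.21 and 0.38, calponin Cnn1 at 0.29 and 0.34, and the actin nucleator Lmod1 at 0.48 and 0.43. Myh11, the smooth muscle myosin heavy chain, was at 4635 against 6143 CPM in EC-iDKO/Apoe-/- (0.75) and 3408 against 6258 CPM in Apoe-/- (0.54), and did not pass the rule. The list's median log2 ratio was -1.06 over 15 genes with at least 3 predicted UMIs in EC-iDKO/Apoe-/- and -1.29 over 16 in Apoe-/-, below the medians of all genes given above.

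Contractile transcripts were also counted in cells that should lack them, and cluster 18 lay within the range of such populations in both libraries. Contractile transcripts made up 2.62% of the UMIs of cluster 18 in EC-iDKO/Apoe-/-, against 5.28% in cluster 13 of the deposited class immune/inflam. EC clusters 9, 20 and 19 stood at 4.36%, 2.96% and 1.12% in that library. In Apoe-/- the share was 3.17% in cluster 18, against 2.09% in immune/inflam cluster 13, 4.73% in EC cluster 9 and 1.72% in EC cluster 20. The level of these genes by itself therefore did not set cluster 18 apart from other classes. The proportion between them did differ: there were 0.788 Myh11 UMIs per Acta2 UMI in cluster 18 in EC-iDKO/Apoe-/- (0.611 to 1.01), against 0.266 in other SMC and 0.233 in immune/inflam cluster 13. In Apoe-/- the values were 0.401 (0.337 to 0.476), against 0.267 in other SMC and 0.187 in immune/inflam cluster 13. SMC cluster 2 stood at 0.360 in EC-iDKO/Apoe-/- and 0.441 in Apoe-/-.

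Few UMIs came from markers of macrophages and T cells, while endothelial and fibroblast markers ranked high among the SMC clusters in Apoe-/-. Of 11 macrophage markers, the cluster held 0 UMIs in EC-iDKO/Apoe-/- and 10 UMIs in Apoe-/-. Other SMC held 16.4 and 126 CPM of these markers. In Apoe-/- cluster 18 stood at 181 CPM, 1.44 times other SMC and rank 4 of 13 SMC clusters. Of 12 endothelial markers it held 6 and 19 UMIs, 242 and 344 CPM against 177 and 122 CPM in other SMC, with Pecam1 at 0 in EC-iDKO/Apoe-/- and 12 UMIs in Apoe-/-. The endothelial list was rank 3 of 15 SMC clusters in EC-iDKO/Apoe-/- and rank 1 of 13 in Apoe-/-. In Apoe-/- its ratio was 2.81, and 2.89 (1.70 to 4.58) without the 2 Col2a1-rich cells. T cell markers were at 0 in both libraries, against 0.721 and 3.50 CPM in other SMC. At such levels, and at that of the macrophage markers in EC-iDKO/Apoe-/-, a count of 0 in cluster 18 says little. Fibroblast markers stood at 484 against 605 CPM in EC-iDKO/Apoe-/- and at 1704 against 669 CPM in Apoe-/-, where 29 of 40 UMIs of Dcn, a small proteoglycan, came from the same 2 cells that carried most Col2a1. Without these 2 cells the Apoe-/- fibroblast ratio was 1.53 (1.14 to 2.01) in place of 2.55, rank 1 of 13 SMC clusters in either case. Epn1 had 0 UMIs in cluster 18 in EC-iDKO/Apoe-/- and 2 in Apoe-/-, and Epn2 had 3 and 4; the deletion is endothelial, so these counts do not check it.

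Genes of the NF-kB pathway were at higher levels in cluster 18. NF-kB is a family of inducible transcription factors that is held in the cytoplasm by inhibitors and turns on adhesion molecules, cytokines and its own inhibitors. The list was put together after values were seen, so its direction is a description. Of its measured members, 6 of 19 were higher in EC-iDKO/Apoe-/- and 12 of 28 in Apoe-/-, and 0 were lower. Over all measured genes 5.13% and 6.06% were higher. The summed level of the list was 5079 against 1910 CPM (2.66-fold, 2.21 to 3.17) and 3099 against 952 CPM (3.26-fold, 2.78 to 3.79). Without the 2 Col2a1-rich Apoe-/- cells, 9 of 28 were higher and the summed ratio was 2.37 (1.96 to 2.85). Nfkb1, which encodes the p50 subunit, had 7 UMIs in EC-iDKO/Apoe-/- (6.99-fold, 2.78 to 14.6) and 12 in Apoe-/- (5.29-fold, 2.71 to 9.36). Malt1, a scaffold and protease upstream of NF-kB, had 16 UMIs in 10 EC-iDKO/Apoe-/- cells (8.46-fold) and 11 in Apoe-/- (4.65-fold). The list also held an inhibitor, Nfkbia, which had 59 UMIs in EC-iDKO/Apoe-/- (2.09-fold) and 36 in Apoe-/- (1.75-fold, under the rule). Nfkbiz, another list member, was 3.02-fold and 2.23-fold higher.

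Icam1, a leukocyte adhesion receptor and NF-kB target on chromosome 9 (21015985 to 21028817, plus strand, GRCm38), was a member of that list. It had 9 UMIs in 6 of 27 EC-iDKO/Apoe-/- cells, or 363 against 32.2 CPM (11.2-fold, 5.06 to 21.8), and 14 UMIs in 5 of 35 Apoe-/- cells, or 254 against 11.0 CPM (23.1-fold, 12.2 to 40.8). Without the 2 Col2a1-rich cells the Apoe-/- ratio was 12.5. Most cells of the cluster had no Icam1 UMI, and the highest count in a cell was 2 in EC-iDKO/Apoe-/- and 5 in Apoe-/-. With 9 UMIs over 27 cells in EC-iDKO/Apoe-/-, a cell without a UMI can still hold the transcript. Whether a minority of cells carried the level was not tested. The Apoe-/- cell with the most Col2a1 held all 9 UMIs of Nos2, the inducible nitric oxide synthase, all 12 of Tnfaip2, and 12 of the 15 of the chemokine Cxcl1, whose other 3 lay in 3 cells.

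Genes of splicing and RNA binding were higher in part. Of 31 measured members, 10 were higher in EC-iDKO/Apoe-/- and 8 in Apoe-/-, and 0 were lower, with summed ratios of 2.02 and 1.67. The splicing regulators Hnrnph1 (3.06-fold and 2.17-fold) and Tra2b (2.30-fold and 2.23-fold) passed in both, while Son, a speckle protein, passed in EC-iDKO/Apoe-/- (3.87-fold) and stood at 1.54-fold in Apoe-/-. This list too was chosen after values were seen.

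Other genes that were higher in both libraries came from several groups. Bdnf, a neurotrophin, had 18 UMIs in EC-iDKO/Apoe-/- (7.87-fold, 4.62 to 12.6) and 15 in Apoe-/- (4.50-fold, 2.50 to 7.50). Ltbp2, a microfibril-associated protein, was 8.52-fold and 3.28-fold higher, and the histone demethylase gene Kdm6b 4.33-fold and 6.48-fold. Runx1, a transcription factor, was 6.21-fold and 11.5-fold higher, on 4 and 9 UMIs; 8 of the 9 lay in the 2 Col2a1-rich cells, and without them the Apoe-/- ratio was 1.38 (0.0346 to 7.83). Among genes lower in both were Tmsb4x, which binds actin monomers (0.20 and 0.37), the ferritin heavy chain Fth1 (0.24 and 0.40), Actb (0.32 and 0.36), vimentin Vim (0.44 and 0.42) and the glycolytic Gapdh (0.26 and 0.36). Mgp, a calcification inhibitor, was lower in EC-iDKO/Apoe-/- (0.36) and stood at 0.92 in Apoe-/-.

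By size alone, the genes with the highest ratios rested on few UMIs. In EC-iDKO/Apoe-/- they included Vegfa, an endothelial growth factor, with 7 UMIs in 5 cells (14.9-fold, 5.85 to 31.8), Add3 with 4 UMIs (16.0-fold), the hyaluronan-degrading Cemip2 with 10 UMIs in 7 cells (9.09-fold), Rel, an NF-kB subunit, with 5 UMIs (9.40-fold), and the endothelial genes Cd93, Mmrn2 and Cldn5 with 2 UMIs each. In Apoe-/- they included Nos2, Tnfaip2, Ccl7 (1 UMI), Diaph3 (3 UMIs), Nt5e (5 UMIs), Basp1 (2 UMIs), Trpv4 (4 UMIs), Icam1 and Chil1 (12 UMIs, of which 10 in 1 cell), with the cartilage collagens Col9a1 (2 UMIs), Col9a3 (3 UMIs, all in 1 cell) and Col11a2 (8 UMIs in 2 cells). Genes at 0 UMIs in cluster 18 were ranked as if they had 3, so they can stand behind genes with 1 UMI. Of the genes that this ranking put lowest, most had 1 UMI in cluster 18. Gpx1, a glutathione peroxidase, was at 40.3 against 738 CPM in EC-iDKO/Apoe-/-. Sem1, a proteasome subunit, was at 18.1 against 285 CPM in Apoe-/-. S100a6, a calcium-binding protein, had 4 UMIs in EC-iDKO/Apoe-/- (0.11, 0.030 to 0.283).

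Immediate early genes respond to stimuli and to tissue digestion. Over all measured genes 5.13% were higher in EC-iDKO/Apoe-/- and 6.06% in Apoe-/-. Immediate early genes were higher for 3 of 19 members in EC-iDKO/Apoe-/- and 6 of 19 in Apoe-/-. Their summed ratios of 1.38 and 1.24 turned below 1 with TMM and with DESeq2 factors in both libraries. With Malat1, ribosomal protein and mitochondrial genes out of the totals they were 1.60 and 1.37, so their direction depended on the scaling. Junb was 2.05-fold and 2.92-fold higher and Egr3 3.53-fold and 3.32-fold, while Fos stood at 0.88 and 0.80.

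Matrix genes were mixed. Of the fibrillar collagens, 1 of 5 measured genes was higher in EC-iDKO/Apoe-/- and 3 of 5 in Apoe-/-, with summed ratios of 1.79 and 2.17. Over all measured genes 5.13% and 6.06% were higher. The summed ratios were 1.03 and 1.52 with TMM factors, 1.05 and 1.55 with DESeq2 factors, and 2.08 and 2.39 with the reduced totals. Col1a1, a chain of the main fibrous collagen, had 40 UMIs in 16 of 27 EC-iDKO/Apoe-/- cells, at 1612 against 419 CPM (3.85-fold, 2.74 to 5.26), and 113 UMIs in 26 of 35 Apoe-/- cells, at 2048 against 644 CPM (3.18-fold, 2.61 to 3.83). Col3a1 stood at 0.95 and 1.81. Without the 2 Col2a1-rich Apoe-/- cells the fibrillar ratio in that library was 1.51 in place of 2.17, with 2 of 5 genes higher, and Col1a1 stood at 1.98 (1.53 to 2.53), under the rule. Small leucine-rich proteoglycans summed to 0.551 and 0.819 of the other-SMC level. The elastic fibre, TGF-beta and apoptosis lists lay between 1.13 and 1.34 in both libraries, in a range that turned below 1 under TMM and DESeq2 factors. With the reduced totals these 3 lists lay between 1.24 and 1.56.

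**Figure D4:**
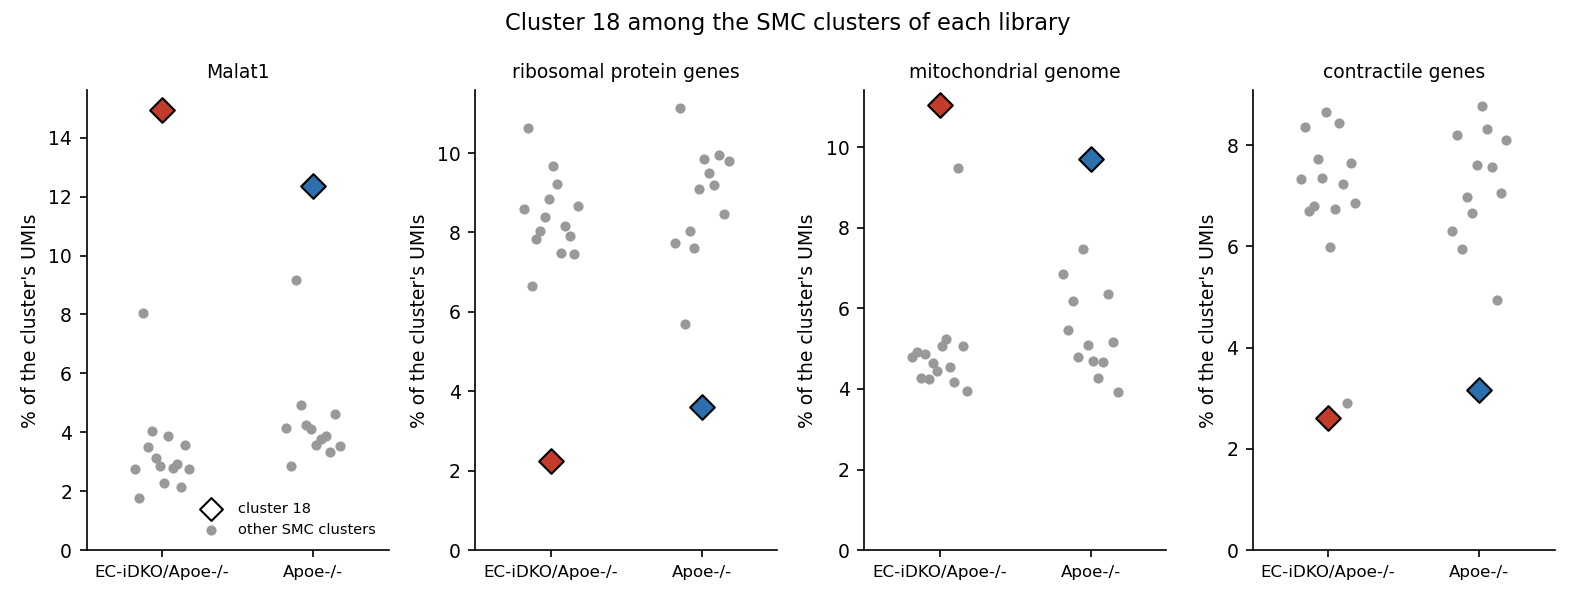
Each point is 1 deposited SMC cluster of at least 20 cells, placed by the percent of its UMIs from Malat1, ribosomal proteins, the mitochondrial genome and contractile genes, for EC-iDKO/Apoe-/- and then Apoe-/-, with cluster 18 as a diamond. Cluster 18 is at the end of the range for Malat1 (14.9% and 12.4% of UMIs), with SMC cluster 2 next (8.06% and 9.16%).

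Set beside single SMC clusters, cluster 18 was the first of 15 clusters of at least 20 cells in EC-iDKO/Apoe-/- and the first of 13 in Apoe-/- for the levels of Malat1, Neat1, the mitochondrial genome, the NF-kB and splicing lists, the fibrillar collagens, Col1a1 and Icam1. Without the 2 Col2a1-rich cells the fibrillar collagens of Apoe-/- came to 4202 CPM and cluster 18 was second, after SMC cluster 17 at 4320 CPM. Cluster 18 was last in both libraries for contractile, ribosomal protein and nuclear respiratory chain transcripts and for Acta2. The nearest cluster in Malat1 was SMC cluster 2, with 666 EC-iDKO/Apoe-/- and 129 Apoe-/- cells. Against it, Malat1 was at 1.85 in EC-iDKO/Apoe-/- and 1.35 in Apoe-/-, ribosomal proteins at 0.340 and 0.633, contractile genes at 0.391 and 0.533, the NF-kB list at 2.58 and 2.84, and Icam1 at 6.65 and 11.1. The gap in Malat1 was thus smaller against this neighbour than against SMC as a whole, while that in the NF-kB list was of like size.

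Col2a1, the collagen of cartilage on chromosome 15 (97975602 to 98004695, minus strand, GRCm38), was at 0 UMIs in all 27 EC-iDKO/Apoe-/- cells; 3 counts over 27 cells, the limit that a count of 0 allows, is a share of up to 11.1% of cells with a UMI, and the exact upper limit is 12.8%. In Apoe-/- it had 92 UMIs in 11 of 35 cells, at 1668 against 95.04 CPM in other SMC (17.5-fold, 14.0 to 21.8). Of those UMIs, 65 lay in 1 cell and 11 in another, so that 2 cells held 76 of 92. The same 2 cells held 28 of 30 UMIs of Acan, the cartilage proteoglycan, and 22 of 27 of Ibsp, a bone matrix protein. Without them Col2a1 was at 314 CPM (180 to 510), 3.31-fold over other SMC (1.88 to 5.40) and rank 1 of 13 SMC clusters. SMC cluster 4 at 301 CPM and SMC cluster 3 at 210 CPM lay inside that interval, so the rank is not firm. The 314 CPM of cluster 18 also lay above the 208 CPM (179 to 241) of immune/inflam cluster 13, with overlapping intervals. Without the 2 cells the cartilage matrix list stood at 2.04 in place of 9.47 times other SMC.

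The share of Apoe-/- cells with a Col2a1 UMI depended on depth. Unthinned, it was 31.4% in cluster 18, against 24.6% in other SMC and 27.1% in immune/inflam cluster 13, at median depths of 1679, 4973 and 4565 UMIs. With every cell thinned to 1000 UMIs it was 33.3% in cluster 18 (8 of 24 cells, 15.6 to 55.3), against 7.56% in other SMC, 15.1% in immune/inflam cluster 13 (9.60 to 22.2), 38.0% in modEC cluster 10 and 21.8% in modEC cluster 8; this left out 11 of the 35 cells of cluster 18. The interval of cluster 18 lay above that of other SMC (6.23 to 9.06) and overlapped that of the immune cells. Thinned to 500 UMIs, which kept all 35 cells, the share was 25.7% in cluster 18 (12.5 to 43.3), against 4.13% in other SMC (3.18 to 5.26) and 7.64% in immune/inflam cluster 13 (3.87 to 13.3). The intervals of cluster 18 and of the immune cells thus overlapped at both depths, and at 500 UMIs only at their ends.

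**Figure D5:**
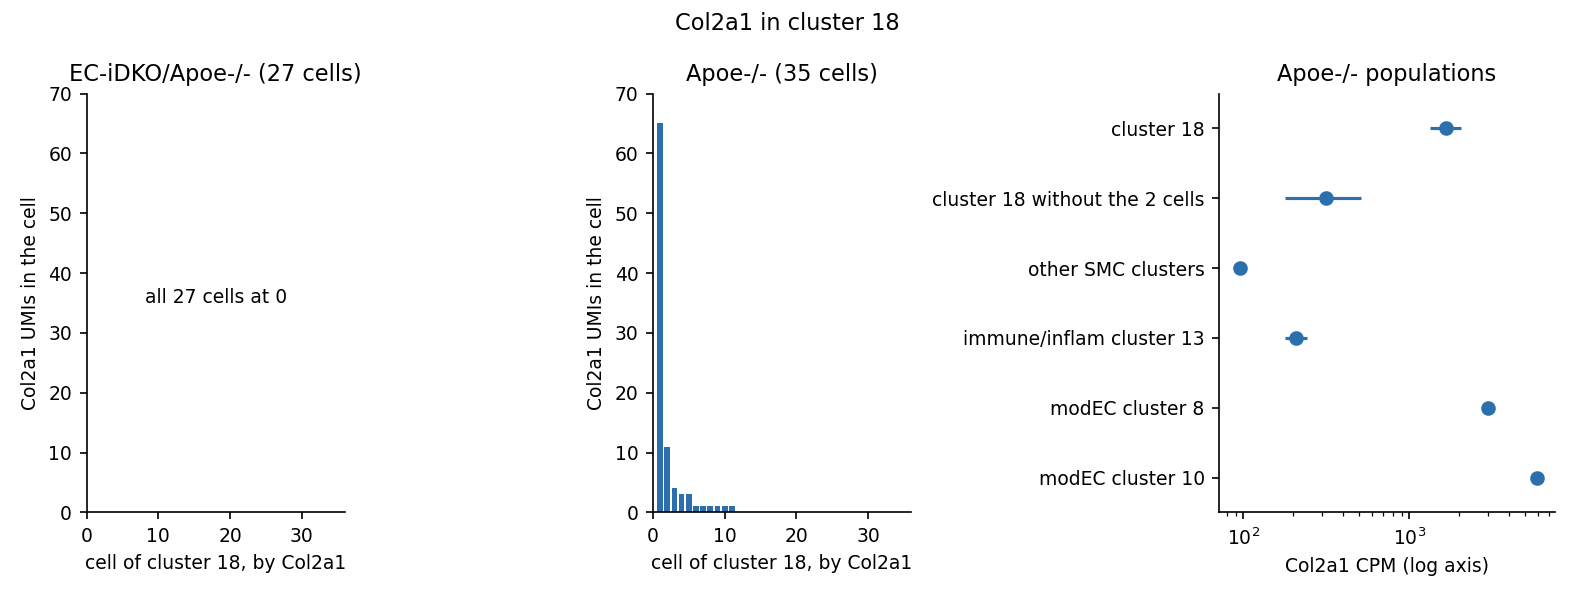
Bars are Col2a1 UMIs of each cell of cluster 18 in EC-iDKO/Apoe-/- and Apoe-/-, and points are the level in CPM by Apoe-/- population with exact 95% intervals. The EC-iDKO/Apoe-/- cells are all at 0, and in Apoe-/- 2 cells with 65 and 11 UMIs stand apart from 33 cells that share 16.

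Clusters 8 and 10 of the deposited class modEC, a name the files do not spell out, were set beside cluster 18 for their cartilage and fibrous matrix transcripts. Against modEC cluster 10, cluster 18 was higher for 285 (4.05%) and lower for 250 (3.55%) of 7039 genes in EC-iDKO/Apoe-/-, and higher for 572 (6.28%) and lower for 307 (3.37%) of 9106 in Apoe-/-. With TMM factors the splits were 96 and 459 in EC-iDKO/Apoe-/- and 241 and 722 in Apoe-/-, with DESeq2 factors 123 and 401, and 267 and 681, and with the reduced totals 323 and 138, and 680 and 188. In Apoe-/-, 16 of 20 measured cartilage matrix genes were lower in cluster 18 and 0 were higher, with a summed level of 0.159 (0.136 to 0.185). Col2a1 itself was at 1668 CPM in cluster 18 and at 5901 CPM in modEC cluster 10. Ibsp was 27.1-fold lower (489 against 13259 CPM), Cytl1, a secreted cartilage protein, 22.3-fold lower, and Chad, a cartilage matrix protein, had 1 UMI against 2355 CPM. In EC-iDKO/Apoe-/- Spp1, osteopontin, had 1 UMI in cluster 18 (40.3 CPM) against 2692 CPM in modEC cluster 10.

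Contractile genes stood at 0.448 of modEC cluster 10 in EC-iDKO/Apoe-/- (5 of 16 lower) and at 0.882 in Apoe-/- (1 of 16 higher, 0 lower). Nuclear-retained RNAs were at 4.12 and 3.40, ribosomal proteins at 0.243 and 0.429, and the mitochondrial genome at 2.45 and 1.88 times modEC cluster 10. These 3 lists lay on the same side of 1 as against other SMC, while no contractile gene was lower in Apoe-/-. Of the genes with the highest ratios, the zinc finger gene Zfp945 and Cep350, a centrosomal protein, had 6 and 7 UMIs in EC-iDKO/Apoe-/-, and none of the 6 named in Apoe-/- had more than 3.

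Against modEC cluster 8, cluster 18 was higher for 330 (4.69%) and lower for 277 (3.94%) genes in EC-iDKO/Apoe-/-, and higher for 598 (6.57%) and lower for 392 (4.3%) in Apoe-/-. With TMM factors the splits were 123 and 626, and 277 and 859, with DESeq2 factors 117 and 635, and 290 and 839, and with the reduced totals 414 and 134, and 710 and 245. Fibroblast markers summed to 0.0697 of modEC cluster 8 in EC-iDKO/Apoe-/- and 0.106 in Apoe-/-, and modulated SMC markers to 0.226 and 0.182. Dcn was at 0 UMIs in EC-iDKO/Apoe-/- against 3626 CPM, at least 30.0-fold lower with 3 UMIs as the floor over the cluster. Timp1, a protease inhibitor, had 1 UMI in each library, 53.2-fold and 71.0-fold lower, and the adhesion receptor Vcam1 was 24.2-fold lower in Apoe-/- (90.6 against 2189 CPM). The NF-kB list, higher than in other SMC, was at 0.729 and 0.606 of modEC cluster 8, against 1.72 and 1.37 times modEC cluster 10. The modulated SMC markers, low against modEC cluster 8, were at 1.71 and 2.57 times other SMC, rank 2 of 15 and 1 of 13 SMC clusters. Without the 2 Col2a1-rich cells the Apoe-/- ratio was 1.94 (1.71 to 2.18). With TMM factors the EC-iDKO/Apoe-/- ratio to other SMC was 0.987.

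Between libraries, 96 genes were higher (0.948%) and 89 lower (0.879%) in cluster 18 of EC-iDKO/Apoe-/- than in cluster 18 of Apoe-/-, of 10122 measured. Of the genes with at least 3 predicted UMIs the shares were 3.07% and 6.51%. TMM gave 47 and 169, DESeq2 82 and 114, and the reduced totals 101 and 66. With 1 library per genotype, genotype and library cannot be told apart, so the other SMC clusters are given beside the values. Heat shock genes were at 7054 CPM in EC-iDKO/Apoe-/- and 20191 CPM in Apoe-/-, a ratio of 0.349 (0.296 to 0.410; 8 of 14 lower, 1 higher), against 0.618 in other SMC. The inducible chaperone Hspa1a had 3 UMIs in EC-iDKO/Apoe-/- (121 CPM) and 139 in Apoe-/- (2519 CPM), while other SMC had 456 and 1699 CPM. Hspa1b, its near-identical neighbour, had 5 and 145 UMIs, with 264 and 1526 CPM in other SMC, and reads of the pair can be split by the counting. Dnajb1, a co-chaperone, was 9.22-fold lower in cluster 18 and 5.08-fold lower in other SMC.

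Trp53, the p53 tumour suppressor, had 16 UMIs in 12 EC-iDKO/Apoe-/- cells and 2 UMIs in Apoe-/- (17.8-fold higher, 4.18 to 159), against 122 and 45.1 CPM in other SMC. Lars2, a mitochondrial leucyl-tRNA synthetase, had 21 and 4 UMIs (11.7-fold), and in other SMC 542 and 87.8 CPM (6.17-fold). The other SMC clusters thus differed between the libraries in the same direction for both genes. Col2a1 was at least 13.8-fold lower in EC-iDKO/Apoe-/- cells of cluster 18, with 3 UMIs as the floor, and at least 2.60-fold lower without the 2 Col2a1-rich Apoe-/- cells; in other SMC it was at 0.180 and 95.04 CPM. Spp1 was 13.5-fold lower in cluster 18, and stood at 22.7 and 79.7 CPM in other SMC (3.51-fold lower). Ribosomal proteins were at 0.625 between the libraries in cluster 18 and 0.930 in other SMC, Malat1 at 1.21 and 0.811, Neat1 at 0.666 and 1.42, and the NF-kB list at 1.64 and 2.01. Malat1 was thus above 1 and Neat1 below 1 in cluster 18, and the reverse held in other SMC, on totals; the Malat1 ratio in cluster 18 was 0.952 with the TMM factor and 1.09 with DESeq2, so its direction turned with the scaling. With 1 library each these differences were not tested.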

How the data were processed

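The files held deposited counts of UMIs for 14714 genes in 10345 cell entries, made by the authors with Cell Ranger and Seurat on mm10, per the submitters' processing notes (versions are not given in the sources used here), with the authors' class, cluster numbers and mitochondrial ratio, a deposited fraction, per cell. The 2428 repeated Apoe-/- entries held identical counts and were dropped. UMIs were summed per population and library, scaled to CPM, and compared as ratios with exact conditional binomial 95% intervals. Genes needed 100 UMIs in the library, and in rankings a count of 0 was set to 3 UMIs. Named genes were the 15 highest and 10 lowest ratios against other SMC, 6 each way against modEC clusters and 10 each way between libraries, without mitochondrial, ribosomal, predicted and sex-linked genes, plus Col2a1, Epn1, Epn2 and up to 6 list members with at least 20 UMIs. The members and lists were chosen with earlier results of these data known; the nuclear-retained, NF-kB, splicing, ribosomal and respiratory lists, the restriction to 3 predicted UMIs, gene span, SMC cluster 2 as a neighbour, the contractile comparison with immune and endothelial clusters, and genes named outside these rules (those higher or lower in both libraries, for example) were chosen after values were seen. Genes of a list named under 20 UMIs fall outside the rule too. Scrublet (scanpy 1.11.5) marked 0% and 0.206% of cells and was taken as not having worked, so no doublets were removed. TMM factors came from edgeR 4.0.16 and size factors from DESeq2 1.42.0 in R 4.3.3, used for scaling only. The scripts ran on Python 3.11.15, numpy 2.4.6, scipy 1.17.1, pandas 2.3.3 and matplotlib 3.10.9 and were tested on simulated data.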

Additional observations from a re-analysis of the deposited data

How the results depend on the processing

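No paired analysis was possible because each genotype has 1 library. Of the values that answer a comparison, 79 stayed within 1.5 times (counts) or the counting interval (shares) and 14 moved. Counts of genes in 1 direction were less stable: 112 stayed within 1.5 times and 54 moved, with 14 of 14 moved under TMM, 12 of 14 under DESeq2 factors and 14 of 14 on thinned cells. Thinning each cell to 1000 UMIs, which drops shallower cells, left 318 (EC-iDKO/Apoe-/-) and 448 (Apoe-/-) genes past the rule against other SMC, 117 and 325 against modEC cluster 10, 226 and 405 against modEC cluster 8, and 57 between libraries. Keeping cells of 1000 or more UMIs with a mitochondrial share below 10% gave 468 (other SMC), 503 (modEC cluster 10) and 563 (modEC cluster 8) genes in Apoe-/- and shares of 0.225% and 0.560%; with 4 such cells in EC-iDKO/Apoe-/-, its gene counts were not run. SMC cells as denominator gave 2.28% in Apoe-/-, and SMC cluster 2 alone gave 428 genes in Apoe-/-. Cfd, an adipokine with 1 UMI in cluster 18 of EC-iDKO/Apoe-/-, turned to a log2 ratio of 1.31 without SMC cluster 15 and 0.86 against SMC cluster 2 alone. The cause of the other moves was not tested. Of the log2 ratios of named genes and lists, 1335 stayed, 233 moved and 2 reversed. Leaving out the 2 Col2a1-rich cells, SMC cluster 2 alone, the reduced totals and leaving out the 6% of cells with the highest Scrublet scores were chosen after seeing the data; leaving out called doublets was not run. A count of 0 over the cluster limits a gene to 3 UMIs.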

Other observations

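Further gene lists were summed in cluster 18 and set against the other SMC clusters. Hypoxia genes summed to 0.728 of other SMC in EC-iDKO/Apoe-/- (0.484 to 1.05) and 0.910 in Apoe-/- (0.702 to 1.16), and aortic position genes, mostly Hox genes, to 1.15 and 1.01. Endoplasmic reticulum chaperones stood at 0.828 and 0.666, with 2 of 18 lower and 1 higher in EC-iDKO/Apoe-/- and 0 past the rule in Apoe-/-. In EC-iDKO/Apoe-/-, 3.88% of all measured genes were lower and 5.13% higher. Of those with at least 3 predicted UMIs, 21.6% were lower and 8.22% higher. Bone mineral genes, led by the calcification inhibitor Mgp, were at 0.381 in EC-iDKO/Apoe-/- and 0.988 in Apoe-/-. Over genes, the profile of cluster 18 was closest to SMC cluster 3 in EC-iDKO/Apoe-/- (r = 0.743, with SMC cluster 2 at 0.724) and to SMC cluster 2 in Apoe-/- (r = 0.860, with SMC cluster 3 at 0.838), a description across genes that are not independent.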
